A study of Mus musculus with 10 samples.

Results

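The mTORC1 and autophagy machinery was followed here as 55 named genes: the subunits of the mTOR complexes, the TSC, Rag, Ragulator and folliculin proteins that control mTORC1 at the lysosome, the MiT/TFE transcription factors below it, and the core autophagy genes from the ULK kinases to the cargo receptors. The genes were taken by symbol from a set list, and all 55 were found among the 21853 protein-coding genes of the tables. Each of them reached 1 TPM in at least 2 libraries, so all 55 stood among the 12060 genes tested. TPM, a share of the library's transcripts after allowing for their length, was estimated by the authors.

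mTORC1 is a protein kinase complex that drives growth when amino acids, glucose and growth factors are plentiful. Rag GTPases, held on the lysosome by Ragulator, bring it to the lysosomal surface, where the GTPase Rheb switches it on, and the TSC complex switches Rheb off. AMPK, the kinase that senses low cellular energy, restrains mTORC1 through the TSC complex and raptor and promotes autophagy through the ULK kinase, whereas active mTORC1 holds the ULK kinase and the MiT/TFE factors in check. In autophagy, a cup-shaped membrane, the phagophore, grows around cytoplasmic cargo and delivers it to the lysosome for breakdown.

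RNA sequencing had been carried out on 5 lines of mouse embryonic stem cells (ESCs) that derive from J1, with 2 libraries for each line. Naïve ESCs (J1, wild type) were compared with lines in which Gys1, the glycogen synthase that the cells use to store glucose (GKO, genotype GYS1 KO), AMPK (AKO, genotype AMPK KO) or both (DKO, genotype AMPK, GYS1 KO) had been knocked out, and with primed ESCs (PJ1, wild type). Naïve ESCs and the 3 knockout lines are variants of J1, whose culture is given as gelatin-coated dishes with FBS (fetal bovine serum), LIF, the MEK inhibitor PD0325901 and the GSK3 inhibitor CHIR99021, while PJ1 was grown on Matrigel with KnockOut Serum Replacement, bFgf and Activin. State and medium can therefore not be told apart between primed and naïve ESCs. GKO was made by an indel in a coding exon of Gys1 and kept as several single clones, and AMPK was removed by targeting Prkaa1, which encodes AMPKα1, with a plasmid that inserts a red fluorescent marker, followed by sorting and pooling of clones. The sources do not say which clones the libraries came from, nor whether the 2 libraries of a line came from separate cultures, so that the p-values measure the spread between these libraries, which may be technical. An effect of the genotype and an effect of the clone can then not be told apart.

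The targeted genes and the cell type were checked first. Prkaa1 read 15.5 and 16.6 TPM in the naïve libraries and 12.2 and 11.96 TPM in those of GKO, but 7.24 and 6.94 TPM in AKO and 2.30 and 2.04 TPM in DKO, so its mRNA was reduced but not absent in AKO and was lower still in DKO. Gys1 mRNA read 11.5 and 10.8 TPM in the naïve libraries, 9.70 and 9.98 in GKO and 12.1 and 11.7 in DKO, a level that does not measure disrupted alleles. The summed TPM of 8 naïve markers was 1702 and 1664 in naïve ESCs and 1723 and 1714 in AKO. It was 1863 and 1945 in GKO, 1907 and 1903 in DKO and 137 and 139 in primed ESCs. Against naïve ESCs, 4 of the 8 naïve markers were called higher and 0 lower in GKO, and 5 higher and 0 lower in DKO. In primed ESCs 6 primed markers summed to 388 and 430. They summed to 68.8 and 68.8 TPM in GKO and 48.7 and 49.5 TPM in naïve ESCs. The sums were 40.96 and 40.3 TPM in AKO and 48.6 and 50.4 TPM in DKO. Of the 4 primed markers tested, 1 was called higher and 0 lower in GKO against naïve ESCs. In DKO against naïve ESCs 1 was called higher and 2 lower, and in GKO against DKO 3 higher and 1 lower. The primed libraries differed between themselves in Fgf5, at 10.7 and 0.447 TPM, and Cer1, at 9.80 and 0.484 TPM. Markers of primitive endoderm summed to at most 5.14 TPM, the highest being primed replicate 1, and Gata4 among them read 1.38 and 1.31 TPM in GKO against 0.685 and 0.363 TPM in naïve ESCs (0.63 (SE 0.16, adjusted p = 0.0109)). Markers of trophectoderm summed to 12.4 to 37.2 TPM, with Elf5 under 0.2 TPM throughout, and of the 3 tested Cdx2 and Krt8 were called higher in GKO and DKO. Cdx2 read 2.57 and 2.66 TPM in naïve ESCs, 1.93 and 1.97 in AKO, 6.62 and 7.27 in GKO and 6.73 and 6.86 in DKO, and Krt8 rose by 0.78 in GKO and 0.66 in DKO, while Eomes was not called. Of the fibroblast markers, Postn, Col3a1 and Col1a2 stayed under 1 TPM in every naïve, AKO, DKO and GKO library, while the sum over the list was 7.97 and 9.22 TPM in GKO against 2.33 to 3.33 TPM in naïve ESCs, AKO and DKO, most of it Thy1, at 7.14 and 8.48 TPM in GKO. The part of these markers in the results was not tested. The listed TPM summed to between 500162 and 578952 in a library, and TPM keeps no record of the depth behind a value. In bulk RNA, fewer cells of a kind and less RNA per cell cannot be told apart.

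Over all libraries, the machinery was expressed at moderate to high levels, with a median of 16.4 TPM against 11.4 TPM for all tested genes. At the top in naïve ESCs stood Gabarapl2, a ubiquitin-like protein that coats the phagophore, at 175 and 178 TPM, Lamtor1, the Ragulator subunit anchored in the lysosomal membrane, at 117 and 111 TPM, and Sqstm1, the cargo receptor p62, at 107 and 106 TPM. At the bottom stood Ulk2, at 0.176 and 0.219 TPM, Atg10, at 1.06 and 0.786 TPM, and Wipi1, at 1.25 and 1.38 TPM. Replicates lay close together: their median absolute difference over the 55 genes was 0.05 on the log2(TPM + 1) scale in naïve ESCs and GKO, 0.07 in AKO and DKO and 0.09 in primed ESCs. All changes below are differences on that scale, which understates the change of genes at low TPM, with a standard error (SE) and a p-value adjusted by Benjamini-Hochberg over all 12060 genes from 1 limma fit. A gene is called when the adjusted p is under 0.05, and each call was repeated in 18 further fits, 8 with another setting and 10 with 1 library left out. Ulk2, Wipi1 and other low genes could not be fitted under the strictest filter, and for them every repeat means the other 17.

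**Figure D1:**
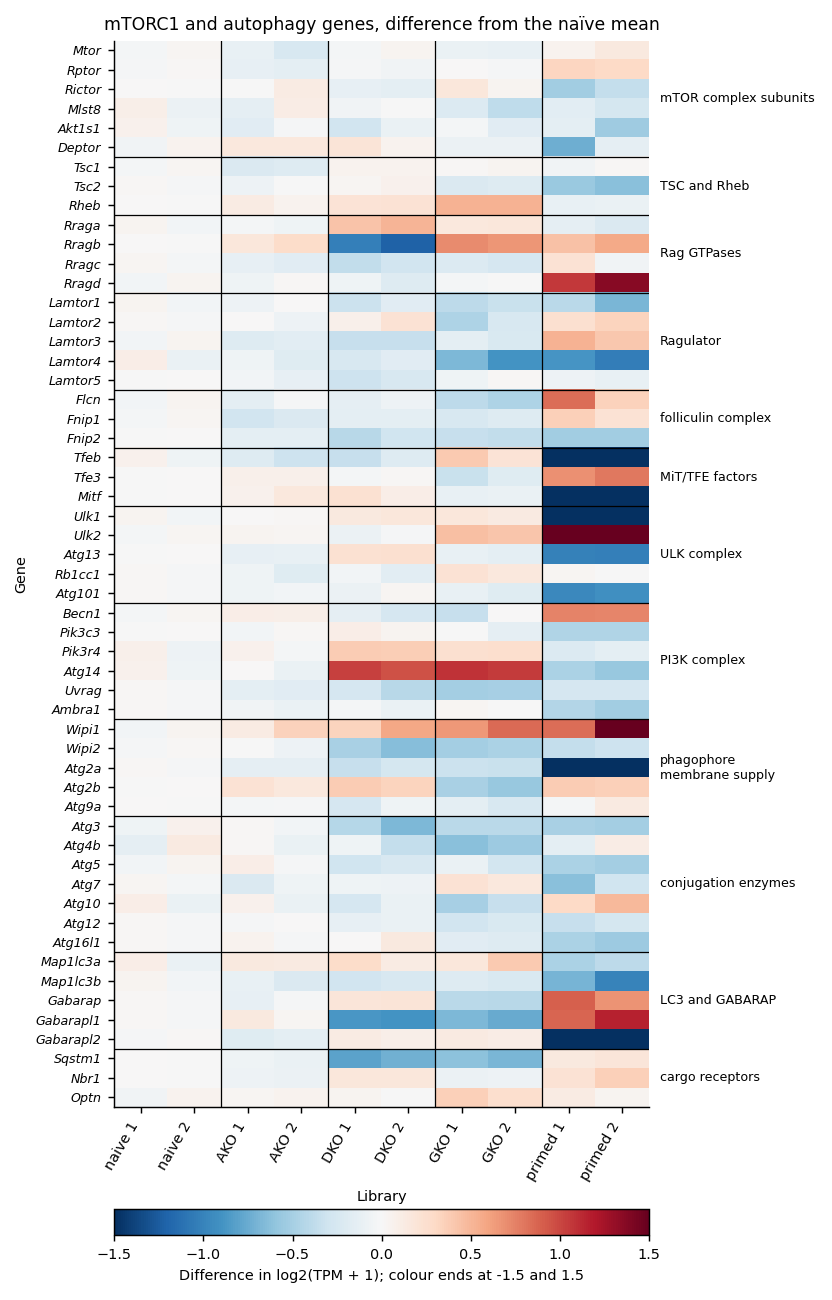
Difference of each of the 55 genes (rows, by role) in each of the 10 libraries (columns) from the mean of the 2 naïve libraries, in log2(TPM + 1), with colours ending at -1.5 and 1.5. The AKO columns are pale throughout, and the DKO and GKO columns share dark cells at Atg14, Gabarapl1 and Sqstm1 and differ at Rragb. The primed columns hold the darkest cells, among them those of Mitf, Tfeb, Ulk1, Atg2a and Gabarapl2, which fell, and of Ulk2, which rose.

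No gene of the machinery was called on loss of AMPK alone. In AKO against naïve ESCs, 0 of 55 genes were called by limma, where 0.224% of all tested genes were called, and 10 of the 55 had an unadjusted p under 0.05. The lowest adjusted p was 0.174, and the changes ran from -0.25 to 0.23 with a median of -0.04. Mtor, the kinase itself, read 16.1 and 14.6 TPM in AKO and 17.1 and 17.9 TPM in naïve ESCs, a difference of -0.18 (SE 0.06, adjusted p = 0.368). Ulk1, the kinase that starts autophagy and is a direct substrate of AMPK, read 53.1 and 53.1 TPM against 54.1 and 51.3 TPM, and Tfeb, a MiT/TFE factor, 24.1 and 22.1 TPM against 28.9 and 26.5 TPM, with a difference of -0.25 (SE 0.11, adjusted p = 0.494). The 2 libraries of AKO lay below both naïve libraries in Mtor and Tfeb and between them in Ulk1, and none of these genes passed the threshold. The call count remained 0 in each of the 18 repeats.

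Loss of Gys1 in the presence of AMPK moved many of these genes, mostly down and mostly by little. In GKO against naïve ESCs 37 of 55 genes were called, 12 higher and 25 lower, where 51.7% of all tested genes were called, 24.7% higher and 27.1% lower. The share called lower was thus 45.5% of the 55 genes, and their median change was -0.14 against -0.01 over all tested genes. Among the 8294 genes with a mean of 5 TPM or more, 33.5% were called lower, with a median of -0.06. The genes of the machinery among them had a median of -0.16. The median of the 55 genes was -0.09 under quantile normalization. It was also -0.09 after the median of the tested genes within 10 Mb was taken from each gene. The lower genes were spread over the Ragulator, folliculin, membrane supply and conjugation groups. Of the 37 calls, 17 held in every repeat, 13 of them lower and 4 higher. Of the other 20, that of Tfe3 was lost under another normalization, and 19 were lost when single libraries of the compared lines were left out, with highest adjusted p between 0.0560 (Tsc2) and 0.518 (Atg101). They were lost without any of the 4 for Flcn, Fnip1, Rragc, Atg13, Atg101, Gabarapl2, Rb1cc1 and Atg16l1, without naïve replicate 2, GKO replicate 1 or GKO replicate 2 for Rraga and Pik3r4, and without naïve replicate 1, naïve replicate 2 or GKO replicate 2 for Lamtor3. Naïve replicate 1 or GKO replicate 1 decided Lamtor1, Atg10 and Optn, naïve replicate 1 or GKO replicate 2 Wipi1 and Mlst8, naïve replicate 2 or GKO replicate 2 Map1lc3a, naïve replicate 2 or GKO replicate 1 Ulk1, and naïve replicate 1 Tsc2. The count rests on all 4 libraries: it was 22 without naïve replicate 1 and 24 without naïve replicate 2, GKO replicate 1 or GKO replicate 2, when 38.0%, 38.7%, 39.2% and 39.9% of all tested genes were called. Only 10 of the 37 had a change of at least 0.5.

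The largest rise was that of Atg14, the subunit that directs the autophagy form of the class III phosphatidylinositol 3-kinase to the phagophore. Its libraries read 11.6 and 10.5 TPM for naïve ESCs and 24.6 and 23.9 TPM for GKO, 11.1 and 10.2 TPM for AKO and 23.5 and 22.4 TPM for DKO, and 7.66 and 7.14 TPM for primed ESCs. The GKO and DKO libraries all lay above 22 TPM and the other 6 below 12 TPM, and GKO differed from naïve ESCs by 1.07 (SE 0.07, adjusted p = 8.90e-06). The tested genes within 10 Mb of Atg14 on chromosome 14 had a median change of 0.43 in GKO and 0.40 in DKO, and the part of these neighbours in the rise was not tested. The other members of the complex moved less. Pik3r4, its regulatory subunit, rose from 15.4 and 13.7 to 17.3 and 17.5 TPM, by 0.24 (SE 0.07, adjusted p = 0.0138). Uvrag, the subunit of the alternative form that acts in endosome transport, fell from 5.02 and 4.90 to 3.17 and 3.22 TPM, a change of -0.51 (SE 0.07, adjusted p = 5.26e-04). Pik3c3, the catalytic subunit, Becn1, the beclin scaffold, and Ambra1, a cofactor of beclin, were not called. The Becn1 libraries of GKO lay apart, at 14.5 and 18.8 TPM against 18.3 and 19.2 TPM in naïve ESCs, and without GKO replicate 2 the change was called at -0.35 (adjusted p = 0.00735), while without GKO replicate 1 it was 0.00197.

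Sqstm1 and Gabarapl1 fell in both lines that lack Gys1. Sqstm1, which binds ubiquitinated cargo and is itself degraded by autophagy, stood at 69.3 and 65.8 TPM in GKO and 60.4 and 64.4 TPM in DKO against 107 and 106 TPM in the naïve libraries and 101 and 98.9 TPM in those of AKO. Its 4 libraries without Gys1 all lay below 70 TPM and the 6 others above 98 TPM, with a change of -0.65 (SE 0.05, adjusted p = 1.36e-05) in GKO. Gabarapl1, a ubiquitin-like protein of the GABARAP family, stood at 8.01 and 7.55 TPM in GKO and 6.88 and 6.74 TPM in DKO against 13.6 and 13.2 TPM in naïve ESCs, with a change of -0.71 (SE 0.09, adjusted p = 2.50e-04) in GKO. The neighbours of both genes moved little, with medians of -0.05 and 0.14 in GKO. The other cargo receptors went differently: Optn, optineurin, was called higher in GKO at 0.30, and Nbr1 was not called.

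**Figure D2:**
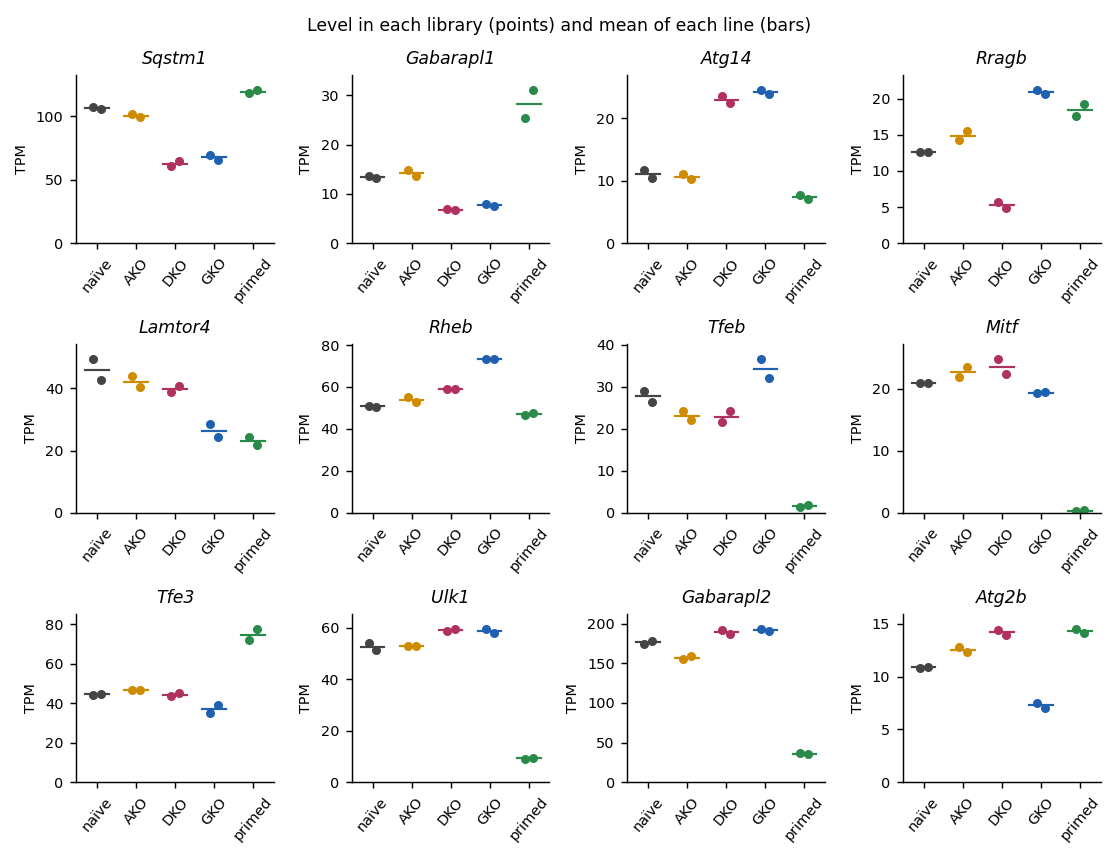
TPM of 12 genes in each library (points, 2 for each line) with the mean of each line (bars), on axes that start at 0. Sqstm1 and Gabarapl1 sit low and Atg14 high in both GKO and DKO, Rragb is high in GKO and low in DKO, and Tfeb, Mitf, Ulk1 and Gabarapl2 are lowest in primed ESCs.

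At the lysosome, 4 of 5 Ragulator and 3 of 3 folliculin genes were called lower while Rheb and Rragb rose. The share called lower over all tested genes was 27.1%. Of the 7 lower Ragulator and folliculin calls, those of Lamtor2, Lamtor4 and Fnip2 held in every repeat. Of the 5 Ragulator subunits, 4 were called lower in GKO, the exception being Lamtor5. Lamtor4 read 28.4 and 24.2 TPM in GKO against 49.3 and 42.7 TPM in naïve ESCs, a change of -0.78 (SE 0.09, adjusted p = 1.85e-04), with a neighbour median of -0.26 on chromosome 5. Lamtor2 read 41.5 and 48.4 TPM against 58.2 and 56.8 TPM, a change of -0.35 (SE 0.08, adjusted p = 0.00476). GKO lay below naïve ESCs in both libraries of both subunits. Lamtor1 and Lamtor3 had changes of -0.36 and -0.19.

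All 3 genes of the folliculin complex, which acts on RagC and RagD and is needed to hold the MiT/TFE factors in the cytoplasm, were called lower. Flcn stood at 11.8 and 11.3 TPM in GKO and 15.5 and 16.4 TPM in naïve ESCs, a change of -0.43 (SE 0.13, adjusted p = 0.0236), but this call was lost when any of these 4 libraries was left out, with adjusted p between 0.0648 and 0.110. Fnip2, its partner, fell from 12.4 and 12.5 to 9.58 and 9.43 TPM with a change of -0.36 (SE 0.06, adjusted p = 0.00113) and was called in every repeat, and Fnip1 had a change of -0.22.

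Rheb, the direct activator of mTORC1, stood at 73.1 and 73.1 TPM in GKO against 51.1 and 50.4 TPM in naïve ESCs, a change of 0.52 (SE 0.04, adjusted p = 1.99e-05). Tsc2, the subunit that inactivates Rheb, was called lower at -0.21 (adjusted p = 0.00715), and Tsc1 was not called. Rragb, RagB, stood at 21.2 and 20.6 TPM in GKO and 12.7 and 12.6 TPM in naïve ESCs, a change of 0.68 (SE 0.08, adjusted p = 1.33e-04). Rraga, the more abundant RagA, rose by 0.17 and Rragc, RagC, fell, with a change of -0.23, while Rragd was not called.

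Of the 6 mTOR subunits and inhibitors, only Mlst8 was called, where 51.7% of all tested genes were called. Mtor read 16.3 and 16.1 TPM in GKO and 17.1 and 17.9 TPM in naïve ESCs, a difference of -0.11 (SE 0.06, adjusted p = 0.194). Rptor, raptor, which binds the substrates of mTORC1, read 15.03 and 14.7 TPM and 14.7 and 15.2 TPM, with overlapping libraries and a difference of -0.0050. Rictor of mTORC2 and the inhibitors Akt1s1 and Deptor were not called, and Mlst8, the subunit of both complexes, was called lower at -0.29 (adjusted p = 0.0388) but in only 11 of 18 repeats.

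The MiT/TFE factors, which switch on lysosomal and autophagy genes, showed no common direction. Tfeb stood at 36.5 and 32.2 TPM in GKO, above both naïve libraries at 28.9 and 26.5 TPM, and its change of 0.30 (SE 0.11, adjusted p = 0.0501) narrowly missed the threshold. It was called in 6 of 18 repeats, among them those without primed replicate 1 (adjusted p = 0.0138) or primed replicate 2 (adjusted p = 0.0140). Tfe3 was called lower, with 35.1 and 38.99 TPM against 44.2 and 44.8 TPM and a change of -0.26 (SE 0.06, adjusted p = 0.00569), but its neighbours on the X chromosome had a median of -0.33, and the call was lost under quantile normalization (adjusted p = 0.0812). Mitf was not called.

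Among the steps that build the phagophore, all 5 genes of the ULK complex were called and their directions were mixed. Over all tested genes, 51.7% were called. Of these 5 genes, only Ulk2 was called in every repeat. Ulk1 stood at 59.6 and 58.1 TPM in GKO against 54.1 and 51.3 TPM in naïve ESCs, a change of 0.16 (SE 0.04, adjusted p = 0.0176). Ulk2 rose by 0.44 from under 0.3 to 0.640 and 0.602 TPM. Rb1cc1, the scaffold FIP200, was called higher and Atg13 and Atg101 lower, each by less than 0.2.

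Membrane supply and conjugation genes were called lower more often than higher. Atg2b, which moves lipids into the phagophore, stood at 7.51 and 7.04 TPM in GKO and 10.8 and 10.9 TPM in naïve ESCs, a change of -0.52 (SE 0.06, adjusted p = 1.10e-04), beside a neighbour median of -0.42 on chromosome 12. Its paralogue Atg2a fell with a change of -0.33, less than the -0.45 of its neighbours on chromosome 19. Wipi2, which recruits the conjugation machinery, fell from 29.3 and 30.2 to 20.5 and 21.1 TPM with a change of -0.49 (SE 0.06, adjusted p = 2.17e-04), beside -0.26 for its neighbours on chromosome 5. Wipi1 was called higher at 0.75, from 1.25 and 1.38 to 2.63 and 3.19 TPM, and Atg9a, which supplies membrane vesicles, was not called.

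Of the 7 conjugation enzymes 5 were called lower and 0 higher, against 27.1% and 24.7% of all tested genes. The protease Atg4b, which primes LC3 for attachment to lipid, stood at 9.24 and 9.81 TPM against 13.4 and 16.3 TPM, a change of -0.59 (SE 0.13, adjusted p = 0.00455). Atg3, the enzyme that transfers LC3 to the lipid, stood at 6.65 and 6.64 TPM against 8.72 and 9.55 TPM, a change of -0.40 (SE 0.09, adjusted p = 0.00493). Atg10, Atg12 and Atg16l1 of the Atg12 conjugate had changes of -0.42, -0.26 and -0.18. Atg5, which is joined to Atg12, and Atg7, which activates both Atg12 and LC3, are the enzymes most often deleted to block autophagy, and neither was called: Atg5 changed by -0.19 (SE 0.07, adjusted p = 0.0523) and Atg7 by 0.18 (SE 0.10, adjusted p = 0.158). Both were called in some repeats, Atg5 without GKO replicate 1 (adjusted p = 0.0244) or without primed replicate 1 or 2 (adjusted p = 0.0450 and 0.0450) and Atg7 without primed replicate 1 (adjusted p = 0.0332) or primed replicate 2 (adjusted p = 0.0338).

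In the LC3 and GABARAP family, Gabarap and Gabarapl1 were called lower and Gabarapl2 and Map1lc3a higher. Gabarap read 50.2 and 49.7 TPM in GKO against 67.6 and 66.3 TPM in naïve ESCs, a change of -0.42 (SE 0.07, adjusted p = 0.00100). Map1lc3b, LC3B, the protein most used to follow autophagy, read 66.5 and 64.8 TPM against 78.5 and 74.1 TPM, a difference of -0.21 (SE 0.09, adjusted p = 0.0722) that was not called, but was called without primed replicate 1 or primed replicate 2 (adjusted p = 0.00521 and 0.00521).

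Between the lines labelled AMPK KO, loss of Gys1 was accompanied by rises and falls in like number. These lines also differed in the AMPK target itself, since Prkaa1 read 7.24 and 6.94 TPM in AKO and 2.30 and 2.04 TPM in DKO (-1.35 (SE 0.07, adjusted p = 3.39e-06)), so that a change between them cannot be assigned to Gys1 alone, and "without AMPK" names the labelled genotype. In DKO against AKO, 23 of 55 genes were called, 12 higher and 11 lower, where 46.3% of all tested genes were called, 22.4% higher and 23.9% lower. The count was 13 without AKO replicate 1 or DKO replicate 1 and 15 without AKO replicate 2 or DKO replicate 2, with at most 35.6% of all tested genes called, and 11 of the 23 calls held in every repeat. In DKO against naïve ESCs 23 of 55 genes were called, 9 higher and 14 lower, where 46.0% of all tested genes were called, 21.7% higher and 24.3% lower. The share called lower was 25.5% of the 55 genes in DKO. Rragb led the falls against naïve ESCs at -1.12 (SE 0.08, adjusted p = 1.49e-05), followed by Gabarapl1 at -0.88, Sqstm1 at -0.76, Wipi2 at -0.56 and Atg3 at -0.55, and Atg14 led the rises at 0.99 (SE 0.07, adjusted p = 1.65e-05), followed by Rraga at 0.47, Pik3r4 at 0.38 and Atg2b at 0.35. These 9 calls held in every repeat. The tested genes of chromosome 12, which holds Atg2b, had medians of 0.155 in AKO minus naïve and 0.134 in DKO minus naïve. The part of this shift in the rise of Atg2b was not tested.

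The comparisons GKO minus naïve and DKO minus AKO share no library, so their agreement can be counted. Whether GKO and DKO come from the same edited clone is not stated, so this agreement cannot be assigned to Gys1 alone. The tested genes of chromosome 14 had medians of 0.47 and 0.38 in the 2 comparisons. Those of chromosome 19 had -0.40 and -0.26, and those of X -0.06 and -0.29. The 4 tested genes of chromosome Y had medians of 2.55 and 3.72, where AKO minus naïve and primed minus naïve both had 0.0. The part of these shifts in the agreement was not tested. The sign was the same for 37 of the 55 genes, or 67.3%, against 69.4% of all tested genes. In both comparisons 17 genes were called, 13 of them in the same direction, which is 35.1% of the 37 calls in GKO and 56.5% of the 23 calls in DKO against AKO, where the shares over all tested genes were 51.5% and 57.5%. Atg14, Gabarapl1, Sqstm1, Wipi2 and Atg3 had the largest such changes. Against AKO, DKO differed by 1.04 (SE 0.07, adjusted p = 1.20e-05) in Atg14, -0.97 (SE 0.09, adjusted p = 6.38e-05) in Gabarapl1 and -0.68 (SE 0.05, adjusted p = 1.38e-05) in Sqstm1. For Wipi2 the change was -0.52 (SE 0.06, adjusted p = 2.07e-04), from 29.6 and 28.2 to 20.97 and 18.7 TPM, and for Atg3 it was -0.54 (SE 0.09, adjusted p = 0.00124), from 9.28 and 8.81 to 6.53 and 5.33 TPM. Ulk1, Rheb, Rraga, Pik3r4 and Gabarapl2 were called higher and Fnip2, Lamtor3 and Atg2a lower on both sides, of which those of Rraga, Pik3r4 and Gabarapl2 held in every repeat of DKO against AKO.

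**Figure D3:**
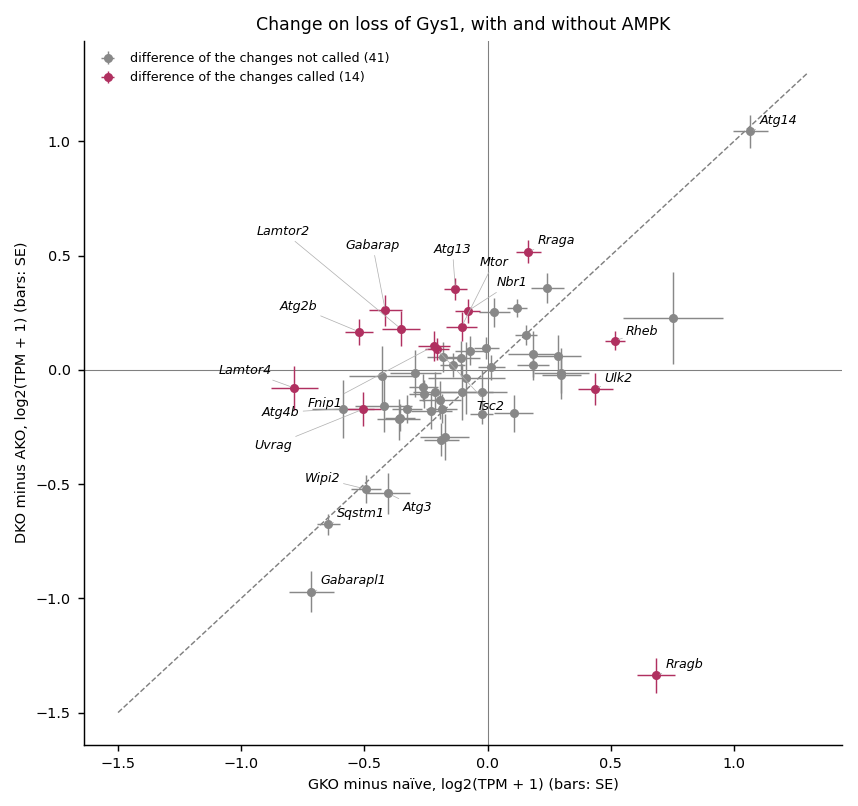
Change on loss of Gys1 in cells with AMPK (GKO minus naïve, x axis) and without it (DKO minus AKO, y axis) for the 55 genes, in log2(TPM + 1) with SE bars and a dashed line of equal change. The 14 genes in red, whose 2 changes differed by the test of the difference, lie off the line, with Rragb at 0.68 and -1.34, while Atg14, Gabarapl1, Sqstm1, Wipi2 and Atg3 lie close to it.

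The change on loss of Gys1 differed between the 2 AMPK genotypes about as often in this machinery as in all tested genes. By a test of the difference between the changes, GKO minus naïve less DKO minus AKO, 14 genes were called, which was 25.5% of the 55 genes, where 25.8% of all tested genes were called, and 10 of the 14 held in every repeat. Of the 14, 3 were higher and 11 lower, against 12.8% and 13.1% of all tested genes. Rragb stood apart. It went from 12.7 and 12.6 TPM in naïve ESCs to 21.2 and 20.6 TPM in GKO, and from 14.3 and 15.5 TPM in AKO to 5.69 and 4.89 TPM in DKO, so that loss of Gys1 was accompanied by more Rragb in cells with AMPK and less in cells without it, with a difference between the changes of 2.02 (SE 0.11, adjusted p = 2.36e-05). Its neighbours on the X chromosome had median changes of 0.12 in GKO minus naïve and -0.21 in DKO minus AKO. Rraga rose in both, and by more without AMPK: 76.3 and 77.2 TPM in GKO and 91.9 and 97.7 TPM in DKO against 70.5 and 66.2 TPM and 66.7 and 65.1 TPM in their controls, naïve ESCs and AKO, a difference of -0.35 (SE 0.07, adjusted p = 0.00866).

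The 11 lower genes were those that fell more, or rose less, on loss of Gys1 when AMPK was present. Gabarap, Atg2b and Atg13 were called in opposite directions on the 2 sides, as was Rragb: DKO stood at 76.02 and 76.9 TPM in Gabarap, 14.4 and 13.98 TPM in Atg2b and 22.96 and 23.2 TPM in Atg13, in each case above both GKO libraries and above AKO at 61.4 and 65.9, 12.8 and 12.3 and 17.7 and 17.98 TPM. In DKO against AKO the call of Atg13 held in every repeat, that of Gabarap was lost without AKO replicate 1 or DKO replicate 2 (adjusted p up to 0.0911), and that of Atg2b without any of the 4 libraries compared (adjusted p up to 0.182). The differences were -0.68 (SE 0.10, adjusted p = 0.00148) for Gabarap, -0.69 (SE 0.08, adjusted p = 5.98e-04) for Atg2b and -0.48 (SE 0.07, adjusted p = 0.00127) for Atg13. Ragulator subunits were among them, Lamtor4 with -0.71 (SE 0.13, adjusted p = 0.00582) and Lamtor2 with -0.53 (SE 0.11, adjusted p = 0.00815). Nbr1, Tsc2, Mtor, Fnip1 and Uvrag had differences of -0.34, -0.30, -0.29, -0.32 and -0.33. The calls of Mtor, Tsc2, Fnip1 and Uvrag did not hold in every repeat (adjusted p up to 0.137, 0.0631, 0.108 and 0.136). Tsc2 lost it without naïve replicate 1, AKO replicate 1, DKO replicate 2 or GKO replicate 1, Fnip1 without any of the 8 libraries, Mtor without any but AKO replicate 1 and Uvrag without any but DKO replicate 2. Mtor also lost it with no filter, under quantile normalization, without the trend and with the replicate block (adjusted p = 0.0606), Uvrag with a pseudocount of 0.1, no filter, median-ratio scaling and the replicate block (adjusted p = 0.0581), and Fnip1 under quantile normalization. Rheb and Ulk2 were, with Rragb, the 3 higher genes, at 0.39 and 0.52.

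Set directly against DKO, GKO differed in 20 of 55 genes, 8 higher and 12 lower, where 43.5% of all tested genes were called, 21.2% higher and 22.4% lower. The largest differences were 1.80 (SE 0.08, adjusted p = 2.46e-06) in Rragb and -0.88 (SE 0.06, adjusted p = 1.20e-05) in Atg2b, followed by -0.60 in Gabarap, -0.58 in Lamtor4, 0.57 in Tfeb and -0.50 in Lamtor2. Tfeb was higher in GKO, at 36.5 and 32.2 TPM, than in DKO, at 21.6 and 24.1 TPM, without overlap, although the difference between its changes in the 2 AMPK backgrounds was not called (0.32, adjusted p = 0.176).

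More of these genes were called between the primed and the naïve state than in any knockout. In primed against naïve ESCs 46 of 55 genes were called, 17 higher and 29 lower, where 80.0% of all tested genes were called, 37.4% higher and 42.5% lower, and 38 of the 46 calls held in every repeat. The share called lower was 52.7% of the 55 genes, and their median change was -0.18 against -0.05 over all tested genes. Among the 8294 genes with a mean of 5 TPM or more, 49.3% were called lower, with a median of -0.17. The genes of the machinery among them had a median of -0.26. After the median of the tested genes within 10 Mb was taken from each of the 55 genes, their median was -0.05. Of the 46, 23 had a change of at least 0.5. The called change of Rptor, Rheb, Pik3r4, Wipi2, Atg2b, Atg7 and Sqstm1 turned in sign after that subtraction. The 9 genes not called were Mtor, Mlst8, Tsc1, Rragc, Lamtor5, Rb1cc1, Atg9a, Atg4b and Optn. The libraries of the 2 states did not overlap in all 46 called genes and in 49 of the 55, or 89.1%, against 88.5% of all tested genes. The calls lost in a repeat were those of Akt1s1, Deptor, Rheb, Rraga, Pik3r4, Uvrag, Atg10 and Sqstm1, with highest adjusted p between 0.0543 (Sqstm1) and 0.588 (Atg10). Leaving out naïve replicate 1 ended the first 6 of these, naïve replicate 2 those of Deptor, Rheb, Atg10 and Sqstm1, primed replicate 1 those of Deptor, Rheb and Pik3r4 and primed replicate 2 those of Akt1s1 and Atg10.

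Mitf and Tfeb had the largest changes of all 55 genes, and Tfe3 went the opposite way. Mitf stood at 20.9 and 20.96 TPM in naïve ESCs and 0.206 and 0.354 TPM in primed ESCs, a change of -4.10 (SE 0.08, adjusted p = 3.16e-10). Tfeb stood at 28.9 and 26.5 TPM and 1.32 and 1.89 TPM, a change of -3.47 (SE 0.11, adjusted p = 7.27e-09). Tfe3 rose from 44.2 and 44.8 to 72.00 and 77.7 TPM, a change of 0.74 (SE 0.06, adjusted p = 2.79e-06). Tfe3 made up 47.8% ± 1.12 (SD, n = 2) of the summed TPM of the 3 factors in naïve ESCs and 97.6% ± 0.509 (SD, n = 2) in primed ESCs, where Tfeb held 2.08% and Mitf 0.361%, and the sum went from 93.1 to 76.7 TPM.

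The ULK kinases moved apart as well. Ulk1 stood at 54.1 and 51.3 TPM in naïve ESCs and 9.20 and 9.53 TPM in primed ESCs, a change of -2.37 (SE 0.04, adjusted p = 3.60e-10), and its partners Atg13 and Atg101 fell too, with -1.02 and -0.94. Ulk2, the paralogue, rose from 0.176 and 0.219 to 2.91 and 2.86 TPM, a change of 1.70 (SE 0.07, adjusted p = 3.76e-08), and thereby from 0.375% to 23.6% of the summed TPM of both kinases. The sum itself went from 52.9 ± 2.01 TPM to 12.2 ± 0.192 TPM (SD, n = 2).

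The ubiquitin-like coat proteins were redistributed. Gabarapl2 stood at 175 and 178 TPM in naïve ESCs and 36.5 and 35.05 TPM in primed ESCs, a change of -2.27 (SE 0.04, adjusted p = 2.50e-10), and Map1lc3b and Map1lc3a fell with -0.84 and -0.43. Gabarap rose from 67.6 and 66.3 to 125 and 108 TPM, a change of 0.78 (SE 0.07, adjusted p = 4.83e-06), and Gabarapl1 from 13.6 and 13.2 to 25.4 and 31.1 TPM, a change of 1.01 (SE 0.09, adjusted p = 6.28e-06). Gabarapl2 accordingly held 49.9% ± 1.25 (SD, n = 2) of the family's TPM in naïve ESCs and 15.1% ± 0.540 (SD, n = 2) in primed ESCs, and Gabarap 18.9% and 48.9%. In GKO the family kept its order, with 56.4% Gabarapl2 and 14.7% Gabarap.

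**Figure D4:**
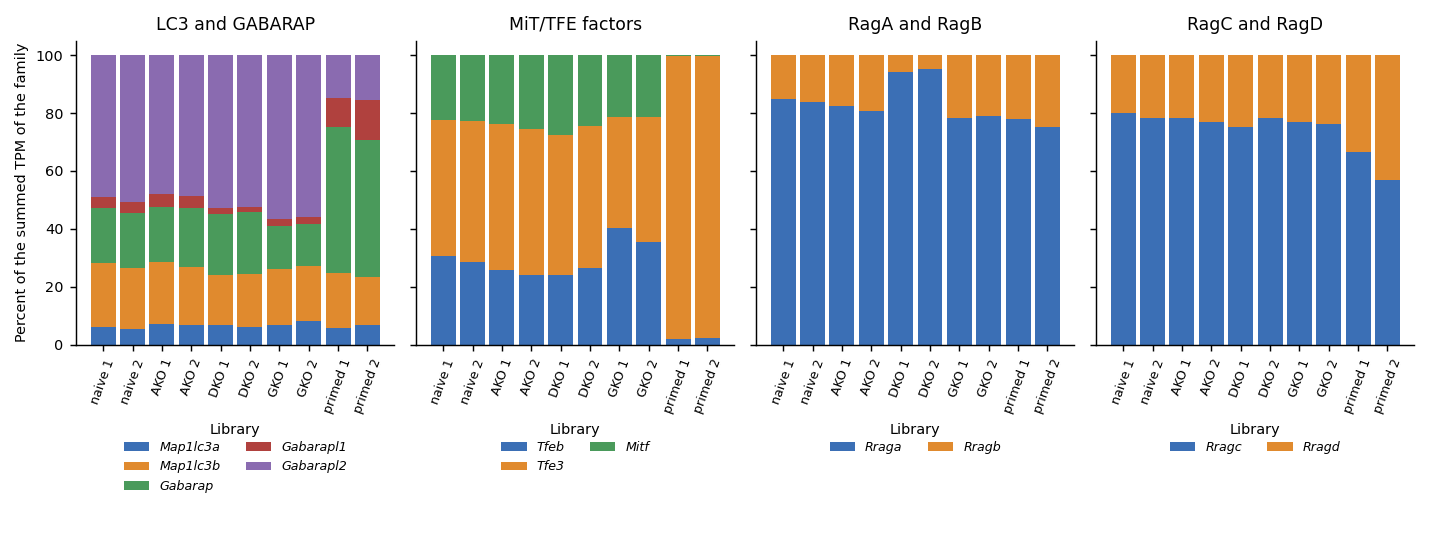
Percent of the summed TPM of a family held by each paralogue, in each of the 10 libraries, as stacked bars. In primed ESCs Tfe3 fills 97.9% and 97.2% of the MiT/TFE bar and Gabarap 50.4% and 47.4% of the LC3 and GABARAP bar, and RagB shrinks to 5.84% and 4.77% of RagA with RagB in DKO.

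The lysosomal arm showed exchanges of the same kind. Rragd, RagD, rose from 7.45 and 7.91 to 17.1 and 21.3 TPM, a change of 1.21 (SE 0.10, adjusted p = 3.34e-06), and went from 20.9% to 38.4% of the summed TPM of RagC and RagD. Rragb was called higher at 0.51 and Rraga lower at -0.18. Lamtor2 and Lamtor3 rose, with 0.29 and 0.46, while Lamtor4 fell from 49.3 and 42.7 to 24.3 and 21.9 TPM, a change of -0.96 (SE 0.09, adjusted p = 1.16e-05), and Lamtor1 fell with -0.54. Flcn, at 29.1 and 20.5 TPM, and Fnip1 rose by 0.59 and 0.28, and Fnip2 had a change of -0.52. Of the mTOR subunits Rptor rose by 0.31, less than the 0.32 of its neighbours, and Rictor, Deptor and Akt1s1 were called lower. Tsc2 had a change of -0.59 and Rheb of -0.11, the latter called in only 8 of 18 repeats beside -0.14 for its neighbours.

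Downstream, Becn1 rose from 18.3 and 19.2 to 32.01 and 31.8 TPM, a change of 0.74 (SE 0.10, adjusted p = 1.08e-04), while the other 5 genes of its complex fell, Atg14 to 7.66 and 7.14 TPM with a change of -0.52 and Pik3r4 with -0.18, beside -0.27 for its neighbours. Atg2a fell from 24.7 and 23.97 to 5.77 and 6.47 TPM, a change of -1.83 (SE 0.06, adjusted p = 8.89e-09), while Atg2b rose by 0.37, as did its neighbours with 0.37. Wipi1 rose by 1.19 and Wipi2 fell with -0.34, beside -0.39 for its neighbours. Of the conjugation enzymes Atg3, Atg5, Atg7, Atg12 and Atg16l1 fell, with changes between -0.51 and -0.31, Atg5 reaching 17.2 and 16.7 TPM and Atg7 8.10 and 10.4 TPM (beside a median of -0.54 for the neighbours of Atg7), while Atg10 rose by 0.39. Nbr1 and Sqstm1 rose by 0.29 and 0.16, the latter beside 0.44 for its neighbours and lost without naïve replicate 2 (adjusted p = 0.0543).

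**Figure D5:**
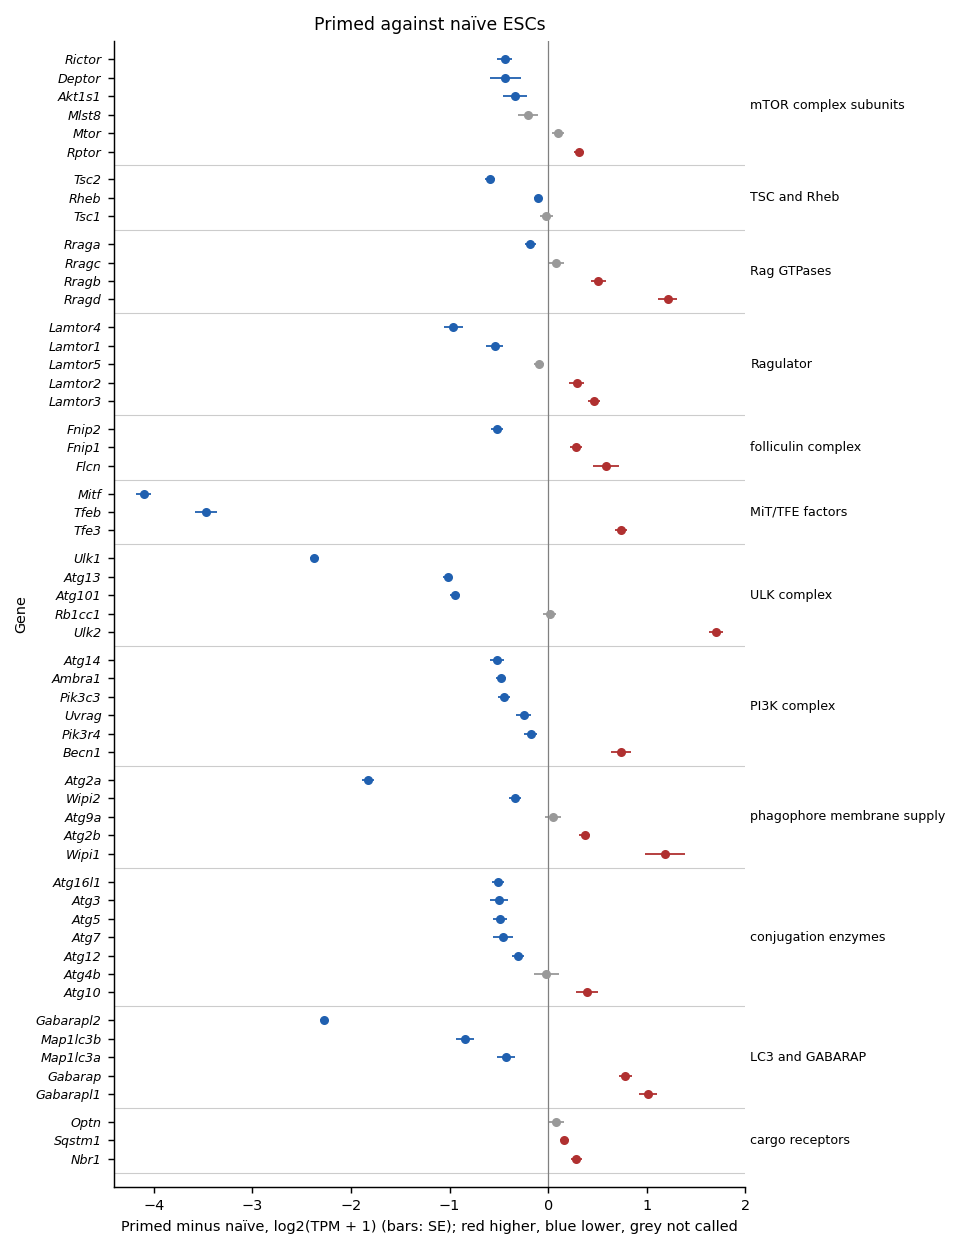
Primed minus naïve change of the 55 genes in log2(TPM + 1), by role, with SE bars, coloured by call (17 higher in red, 29 lower in blue, 9 not called in grey). Within the MiT/TFE, ULK, membrane supply and LC3 and GABARAP groups, paralogues lie on opposite sides of 0.

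The MiT/TFE factors bind a short DNA element, the E-box CACGTG, most often as TCACGTG, so the promoters were searched for these letters. RefSeq promoters of the GRCm38.p6 build, from 250 bases before to 50 bases after a start site, were matched by symbol for 47 of the 55 genes, and the others (Becn1, Lamtor3, Atg16l1, Atg12, Rb1cc1, Map1lc3a, Pik3c3 and Deptor) had no entry. CACGTG, which reads the same on both strands, was in 10 of the 47 promoters, or 21.3%, against 12.1% of the 9504 tested genes with a promoter and 7.15% of all 32851 promoters. TCACGTG, read on either strand as TCACGTG or CACGTGA and always overlapping CACGTG, was in 9, or 19.1%, against 7.23% of the tested genes and 3.77% of all promoters. The remaining CACGTG was that of Atg5. A match is a description of these letters and not a site of binding, and its absence says only that the letters are not in this window. The windows of these 9 genes are shown because they can be set beside the changes of Tfeb, Mitf and Tfe3. Each holds the matches with 30 bases on either side, goes past the start site only as far as a match that spans it (in Atg14 and Rragb), and is given 5′ to 3′ on the strand of its gene, and capitals mark TCACGTG or its reverse complement.

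Rragc (chr4:123917291-123917357, plus strand): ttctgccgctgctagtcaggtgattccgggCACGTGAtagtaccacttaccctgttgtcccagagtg
Rheb (chr5:24842422-24842488, minus strand): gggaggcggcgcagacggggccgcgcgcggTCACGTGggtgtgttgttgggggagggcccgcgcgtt
Lamtor4 (chr5:138255332-138255413, plus strand): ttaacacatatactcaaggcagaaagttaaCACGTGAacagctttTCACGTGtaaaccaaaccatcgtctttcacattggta
Atg7 (chr6:114670933-114670999, plus strand): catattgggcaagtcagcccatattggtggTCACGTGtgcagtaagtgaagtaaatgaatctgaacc
Lamtor1 (chr7:101905738-101905804, plus strand): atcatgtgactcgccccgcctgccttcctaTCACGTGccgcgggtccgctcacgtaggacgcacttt
Fnip1 (chr11:54438074-54438140, plus strand): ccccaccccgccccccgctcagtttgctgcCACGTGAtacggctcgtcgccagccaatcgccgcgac
Atg14 (chr14:47568429-47568465, minus strand): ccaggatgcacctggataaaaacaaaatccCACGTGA
Atg3 (chr16:45158704-45158793, plus strand): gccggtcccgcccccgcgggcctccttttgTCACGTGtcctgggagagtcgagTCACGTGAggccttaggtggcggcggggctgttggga
Rragb (chrX:153139801-153139961, plus strand): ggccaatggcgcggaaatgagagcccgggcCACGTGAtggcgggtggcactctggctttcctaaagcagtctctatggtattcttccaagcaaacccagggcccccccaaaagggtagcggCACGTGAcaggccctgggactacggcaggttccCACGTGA

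Rragb, at chrX, held 3 matches, Lamtor4 and Atg3 2 each and the others 1. In GKO against naïve ESCs 3 of the 9 genes were called higher and 5 lower, with a median change of -0.22, and the 38 genes without the letters had 7 higher and 17 lower, with a median of -0.14. In primed ESCs, in which Tfeb and Mitf were low and Tfe3 high, 2 of the 9 were higher and 6 lower, with a median of -0.46, and of the 38 others 13 were higher and 18 lower, with a median of -0.14. Genes with the same letters thus moved in both directions in each comparison: Rheb rose and Lamtor4, Lamtor1 and Atg3 fell in GKO.

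The genes around the machinery were read from lists of the pathway. In GKO against naïve ESCs the V-ATPase, the proton pump that acidifies the lysosome and takes part in amino acid sensing, had 1 of 17 subunits called higher and 8 lower, or 5.88% and 47.1%, against 24.7% and 27.1% of all tested genes. Atp6ap1, Atp6v0b and Atp6v1a had changes of -0.91, -0.55 and -0.52. Of 36 lysosomal enzymes and membrane proteins 8 were called higher and 15 lower, or 22.2% and 41.7%, with Ctsa, protective protein of the lysosome, at -0.96 and Ctsz, a cathepsin, at 0.71. The same lists in DKO against naïve ESCs gave 2 higher and 8 lower of 17 for the V-ATPase, or 11.8% and 47.1%, and 12 higher and 4 lower of 36 for the lysosomal proteins, or 33.3% and 11.1%, against 21.7% and 24.3% of all tested genes. The difference between the Gys1 effects with and without AMPK was called lower for 13 and higher for 1 of the 36 lysosomal genes, 36.1% and 2.78%, where 13.1% and 12.8% of all tested genes were called. Hexa, a hexosaminidase subunit, went from 7.46 and 7.75 TPM in naïve ESCs to 10.98 and 9.77 TPM in GKO, and from 5.65 and 5.48 TPM in AKO to 22.3 and 23.04 TPM in DKO. Tpp1, a peptidase, went from 18.4 and 18.9 to 17.1 and 16.6 TPM and from 17.8 and 19.2 to 29.1 and 29.00 TPM. Both genes were highest in DKO, with differences of -1.45 (SE 0.19, adjusted p = 0.00103) and -0.76 (SE 0.10, adjusted p = 0.00124). They were chosen after their values were seen.

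The remaining lists moved in part, and are read against the 24.7% higher and 27.1% lower of all tested genes in GKO. Of 17 GATOR and amino acid sensing genes 6 were higher and 3 lower in GKO, or 35.3% and 17.6%, with Mios of GATOR2 at 1.07, Nprl3 of GATOR1 at 0.47 and Sesn1, a leucine sensor of the sestrin family, at 0.47. Of 9 genes of mTORC2 and AKT signalling 2 were higher and 4 lower, or 22.2% and 44.4%, among them Akt1 at -0.71, Akt2 at -0.56 and Prr5 at -0.46. Of 13 genes for outputs of mTORC1 2 were higher and 3 lower, or 15.4% and 23.1%, with the S6 kinase Rps6kb2 at -0.59, Pdcd4 at 0.54 and Lpin1 at 0.47. Of 23 other autophagy genes 5 were higher and 8 lower, or 21.7% and 34.8%, with Vamp8, a fusion protein of the autophagosome, at 1.02, Wdr45 at -0.58 and Plekhm1 at -0.46. In AKO against naïve ESCs limma called 0 genes of these 6 lists.

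In primed against naïve ESCs, 80.0% of all tested genes were called, 37.4% higher and 42.5% lower. The outputs of mTORC1 and the lysosomal proteins lay near these shares, and the other lists lay further off in the share called higher. All 9 genes of mTORC2 and AKT signalling were called, 5 higher and 4 lower, or 55.6% and 44.4%, with Sgk1, a kinase activated by mTORC2, at -3.20. The outputs of mTORC1 had 5 higher and 6 lower of 13, or 38.5% and 46.2%, with the adaptor Grb10 at 3.32. The GATOR and amino acid sensing genes had 8 higher and 5 lower of 17, or 47.1% and 29.4%, with Castor2 at 2.01 and Sesn3 at 1.75. The other autophagy genes had 4 higher and 11 lower of 23, or 17.4% and 47.8%, with Stbd1, a receptor for glycogen, at 2.44 and Wdr45 at -1.64. The V-ATPase had 3 higher and 8 lower of 17, or 17.6% and 47.1%. The lysosomal proteins had 13 higher and 17 lower of 36, or 36.1% and 47.2%. Among these were Manba at -3.84, Scarb2, a lysosomal membrane protein, at 2.59 and Hexa at -2.35.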

How the data were processed

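PolyA-selected RNA libraries of 5 J1-derived mouse ESC lines, 2 each, had been deposited as one table of TPM per library. Per the labels, the authors aligned reads with STAR and estimated TPM with RSEM, which shares reads between similar transcripts, so that paralogues are less certain. The labels and the study's methods disagree on the library kit, the sequencer, the genome build and the STAR version, and the paragraph of the methods on library preparation names J1, GKO and PJ1, while that on RNA-seq processing names all 5 lines. TPM holds no counts or depth, so no counting interval could be given.

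Lines were taken from the labels. Genes that reached 1 TPM in 2 or more of the 10 libraries were kept (12060 of 21853), and log2(TPM + 1) was fitted with limma 3.58.1 in R 4.3.3, with a mean for each line, a trend of variance with level, and Benjamini-Hochberg adjustment over all tested genes in each of 7 comparisons at a threshold of 0.05. With 2 libraries against 2, an exact two-sided permutation test cannot give a p below 0.333, so that the calls rest on the spread pooled over genes. The 55 genes, the pathway lists and the comparisons were chosen with earlier results of these data known. All 55 genes are accounted for, and 3 leading genes of each other list were named by size of change among those called, apart from a few that are not reported here. Each fit was repeated with a pseudocount of 0.1, no filter, a mean of 5 TPM or more as the filter, quantile or median-ratio normalization, no trend, a replicate block, the compared lines alone, and each library left out in turn. The medians of tested genes within 10 Mb were added after the data were seen. Steps were tested on simulated data. Promoters came from RefSeq (GRCm38.p6) and were searched for letters on both strands.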

Additional observations from a re-analysis of the deposited data

Results flagged for a closer look

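The change on loss of Gys1 differed between the lines with and without the AMPK KO label in 14 of the 55 genes, by the limma test of the GKO minus naïve change against the DKO minus AKO change. Among genes at the lysosome the differences were 2.02 for Rragb, 0.39 for Rheb, -0.35 for Rraga, -0.53 for Lamtor2, -0.71 for Lamtor4, -0.32 for Fnip1, -0.30 for Tsc2 and -0.29 for Mtor. Among autophagy genes they were 0.52 for Ulk2, -0.48 for Atg13, -0.33 for Uvrag, -0.69 for Atg2b, -0.68 for Gabarap and -0.34 for Nbr1. With 25.5% of the 55 genes and 25.8% of all tested genes past the threshold, the share was near the background. Rragb had by far the largest of these differences and changed in opposite directions in the 2 backgrounds, and it stood lowest in DKO. All 14 differences kept their sign after the median of the neighbouring genes was subtracted, and 12 of them kept a share of 0.5 or more of their size.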

How the results depend on the processing

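With a minimum change of 0.5 on the log2 scale, 10 genes remained called in GKO minus naïve, 6 in DKO minus naïve, 23 in primed minus naïve, 5 in GKO minus DKO, 7 in DKO minus AKO and 6 in the difference of Gys1 effects. Leaving out 1 library at a time gave 22 to 42 calls in GKO minus naïve and 13 to 26 in DKO minus AKO. The ranges were 16 to 28 in DKO minus naïve, 40 to 46 in primed minus naïve, 14 to 25 in GKO minus DKO and 10 to 20 in the difference. Where a line is left with 1 library, that library is assumed to vary like the others. The part of this assumption in these ranges was not tested. In GKO minus naïve, Rptor turned from its negative value to 0.038 under quantile normalization and ranged from -0.027 to 0.017 with 1 library left out, and Becn1 ranged from -0.35 without GKO replicate 2 to 0.00197 without GKO replicate 1, none of the turned values being called. The median change of the 55 genes in GKO was -0.09 under quantile normalization, with 12 higher and 18 lower genes. After subtraction of the median of neighbours within 10 Mb, a choice made after the data were seen, the median was -0.09 in GKO minus naïve, -0.05 in primed minus naïve, -0.03 in DKO minus naïve and -0.07 in the difference. The cause was not tested. Over 1195 repeats of 63 results for named genes, 1114 kept direction and side of the threshold, 60 lost the call, 17 gained it and 4 changed sign. This tally overstates stability. Leaving out a library of a line that is not compared cannot alter a change, so the direction was fixed in those repeats. Many of these genes were also named for having the largest called changes. Replicate numbers are shared between lines, but the labels give them no common batch, and the 10 correlations of deviations between same-numbered libraries ran from -0.13 to 0.08. A replicate block gave 32 calls in GKO minus naïve, 22 in DKO minus naïve, 45 in primed minus naïve, 18 in GKO minus DKO, 20 in DKO minus AKO, 12 in the difference and 0 in AKO minus naïve. The tested genes of chromosomes 14, 19 and X had medians of 0.47, -0.40 and -0.06 in GKO minus naïve. In DKO minus naïve their medians were 0.36, -0.27 and -0.26. The 4 tested genes of chromosome Y, which holds none of the 55 genes, had medians of 2.55 in GKO minus naïve and 3.72 in DKO minus naïve. Without the members on chromosomes 14, 19 and X, 33 of 51 genes were called in GKO. Depth could not be weighed.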
